A study of Homo sapiens with 6 samples.

Results

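NEAT1, MALAT1 and 4 genes for paraspeckle proteins, NONO, SFPQ, PSPC1 and RBM14, were followed in MOLP-8 cells, an established human multiple myeloma line. These 6 genes, of 57861 with a usable value in every library, were picked by symbol. Earlier results of the same libraries were known when they were picked, among them the divergence of NEAT1 and MALAT1 between LIN28B KO libraries, so their differences between the groups are a description, and where the fit across all genes called a member, the count is given beside the share of all genes and supports nothing. LIN28B KO cells had received the lentiCRISPRv2 vector with a guide RNA against LIN28B, and control cells the same vector with a scrambled guide. Both groups were selected with puromycin and grown in RPMI medium with fetal bovine serum, and each had 3 RNA-seq libraries. The sample titles name the targeted libraries KD, where the condition label says KO, and no clone is named. The labels do not state if the libraries were made from separate cultures. SDs, SEs and p-values therefore describe the spread between libraries, which may be technical.

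Paraspeckles are bodies in the nucleus built around the long isoform of NEAT1, a noncoding RNA on which the proteins SFPQ, NONO and PSPC1 of the DBHS family and the prion-like protein RBM14 assemble. The short NEAT1 isoform overlaps the start of the long one and ends at a poly(A) signal, while the long isoform is cut at its 3′ end by RNase P. MALAT1, from the neighbouring locus, is cut in the same way, lies mainly in nuclear speckles and, like long NEAT1, has in place of a poly(A) tail a triple helix of U-rich motifs and an A-rich tract. LIN28B blocks the maturation of let-7 microRNAs, which repress RNAs carrying matches to their seed.

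In the files' GRCh37 coordinates NEAT1 (ENSG00000245532) lies at chr11:65190245-65213011 and MALAT1 (ENSG00000251562) at chr11:65265233-65273940, both annotated as long intergenic noncoding RNAs. NONO (ENSG00000147140) lies at chrX:70503042-70521018, SFPQ (ENSG00000116560) at chr1:35641979-35658749, PSPC1 (ENSG00000121390) at chr13:20248896-20357142 and RBM14 (ENSG00000239306) at chr11:66384053-66394818, and all 4 are protein-coding. The tables give 1 value per gene, so the short and the long NEAT1 isoform are summed.

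The 3′ ends of both noncoding RNAs are shown because they set whether a transcript carries a poly(A) tail. They were read from GENCODE 29 transcripts, NEAT1-202 (positions 22634 to 22743 of 22743) and MALAT1-202 (positions 8246 to 8355 of 8708). Capitals mark the U-rich motif TTTTGCTTTT and the A-rich tract AAAAAGCAAAA.
NEAT1-202 3′ element: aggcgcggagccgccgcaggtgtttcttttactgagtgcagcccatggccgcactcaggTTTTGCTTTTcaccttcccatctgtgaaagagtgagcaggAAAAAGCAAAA
MALAT1-202 3′ element: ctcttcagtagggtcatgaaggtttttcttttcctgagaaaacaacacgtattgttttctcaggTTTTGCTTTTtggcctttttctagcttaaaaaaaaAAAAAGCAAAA
Searched on the transcript strand, both motifs lay within 110 bases of each other in 3 of 53822 genes (0.00557%), namely NEAT1, MALAT1 and RETREG3. The short transcript NEAT1-208 ends differently, with the poly(A) signal AATAAA (capitals) in its last 60 bases, a motif found in the last 60 bases of 31.9% of 58419 genes' longest transcripts.
NEAT1-208 3′ end: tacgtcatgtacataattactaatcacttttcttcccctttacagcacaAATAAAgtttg

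The let-7 family is shown because LIN28B acts on it. The 9 let-7 family microRNAs taken from RefSeq (GRCh38.p14), which may not be its full list, share the seed GAGGUAG, bases 2 to 8, in capitals below. Those shown are let-7a-5p at chr9:94175962-94175983 (plus strand), let-7g-5p at chr3:52268336-52268357 (minus strand) and miR-98-5p at chrX:53556299-53556320 (minus strand).
hsa-let-7a-5p: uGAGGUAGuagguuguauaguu
hsa-let-7g-5p: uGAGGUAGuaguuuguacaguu
hsa-miR-98-5p: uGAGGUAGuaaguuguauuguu
The complement of this seed, CTACCTC, was searched on the transcript strand only. NEAT1-202 held 3 matches, all in the stretch that the short isoform lacks, and those at positions 14750 and 14932 are shown with the match in capitals.
NEAT1-202 match 2: gaagggaagccCTACCTCattattctact
NEAT1-202 match 3: tcttggtctgtCTACCTCggcatctagtt
The other 7 NEAT1 transcripts, of up to 3524 bases, held 0 matches, as did all 17 MALAT1 transcripts. For NONO, SFPQ, PSPC1 and RBM14 only the longest protein-coding transcript of each was searched. These 4, of 2407 to 3747 bases, also held 0 matches. The longest transcripts of all genes held 0.707 matches per 10000 bases, and the share with a match at such short lengths was not computed. Of 25 transcripts at least as long as NEAT1-202, 72% held at least 1 match in their first 22743 bases and 20% held 3 or more. Of 1173 transcripts at least as long as MALAT1-202, 44.2% held 1 in their first 8708 bases.

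The libraries themselves differed in ways that touch every member. LIN28B, the targeted gene, had 8.41, 8.17 and 5.84 FPKM in LIN28B KO libraries 1 to 3, against 23.3, 24.3 and 25.5 FPKM in control libraries 1 to 3, where FPKM are fragments scaled to transcript length and library size. Library 3 of LIN28B KO differed from the remaining 5, as it had 17676 genes at 1 FPKM or more, against 15356 to 15932 in the others, and 30.4% of 401 olfactory receptor genes above 0, against 10.2% to 14.5%. Its coding genes at 200 to 500 FPKM in controls lay at a median log2 ratio of -0.61 to the control mean, against -0.10 in each of LIN28B KO libraries 1 and 2. Values are therefore given with and without library 3, and also after cyclic loess, which removes trends of the log2 ratios with level and moves the median log2 difference of all genes from -0.13 to 0.00. All 10 plasma cell markers found were at 1 FPKM or more in at least 3 libraries, and the summed FPKM of the T and NK cell, myeloid and erythroid markers stayed at or under 2.66 per list in every library. The B cell markers summed to 4.81 FPKM in LIN28B KO library 3, most of it CD22 at 4.62 FPKM, against 0.127 to 0.893 FPKM elsewhere. The epithelial or stromal markers summed to 80.6 to 104 FPKM in LIN28B KO and 121 to 132 FPKM in control, most of it KRT8. Bulk RNA cannot tell fewer cells of a type from less RNA per cell. The share of reads from RNA without a poly(A) tail depends on how RNA was selected, which the sources used here do not give.

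NEAT1 was higher than in all controls in LIN28B KO libraries 1 and 2 and at the control level in library 3. It had 459, 452 and 311 FPKM in LIN28B KO libraries 1 to 3, against 310.1, 323 and 321 FPKM in control libraries 1 to 3. The mean was 407 ± 83.4 FPKM in LIN28B KO and 318 ± 7.02 FPKM in control (SD, n = 3 each), so that the spread within LIN28B KO was close to the difference between the groups. The log2 difference was 0.33 (SE 0.18) with all libraries and 0.52 (SE 0.04) without LIN28B KO library 3, where the mean of 456 FPKM was 1.43 times that of controls. The deposited bounds on NEAT1, which describe uncertainty within a library only, spanned 3.18%, 11.03% and 11.6% to either side of the value in LIN28B KO libraries 1 to 3, and 8.85%, 3.32% and 3.26% in controls. The bounds of the other noncoding member, MALAT1, spanned 2.96% to 3.57% in all 6 libraries.

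MALAT1 showed the opposite picture, with an excess concentrated in library 3. It had 314, 331 and 892 FPKM in LIN28B KO libraries 1 to 3, against 259.6, 286 and 259.3 FPKM in controls. All 3 LIN28B KO values lay above all controls, but library 3 was 2.77 times the mean of libraries 1 and 2. The means were 512 ± 329 FPKM in LIN28B KO and 268 ± 15.1 FPKM in control (SD, n = 3 each). The log2 difference was 0.76 (SE 0.38) with all libraries and 0.27 (SE 0.06) without LIN28B KO library 3, a 1.202-fold higher mean in libraries 1 and 2.

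**Figure D1:**
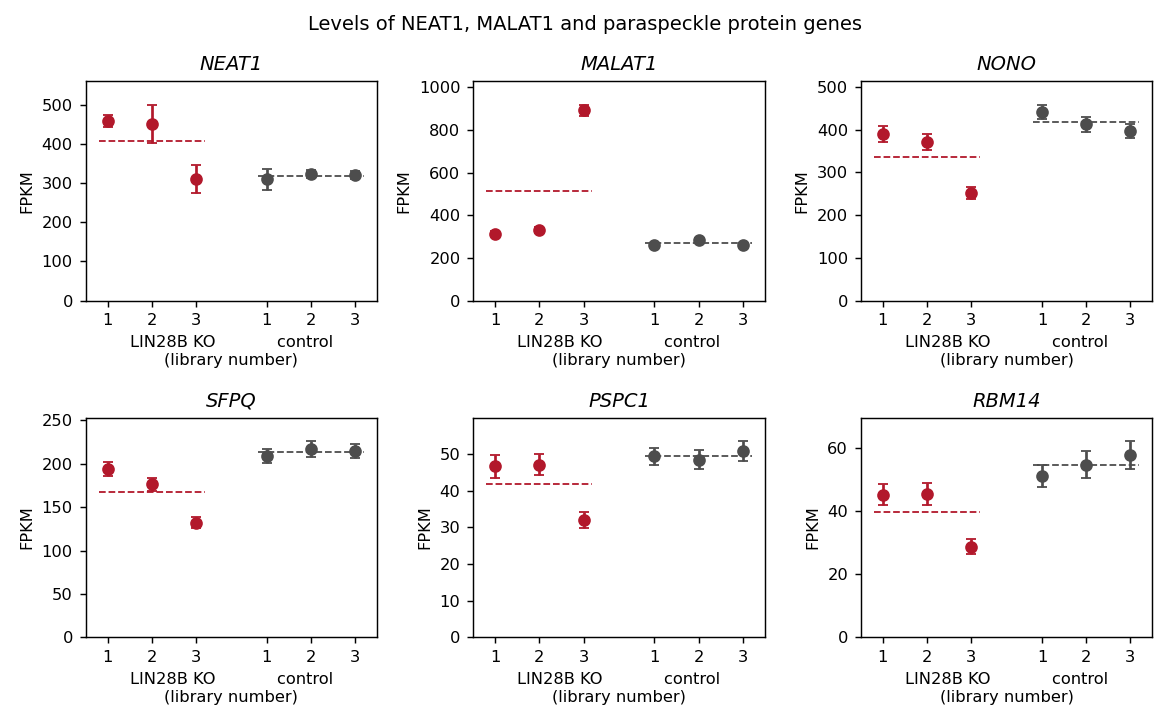
FPKM (linear axes from 0) of each member in LIN28B KO libraries 1 to 3 (red, left) and control libraries 1 to 3 (grey, right); error bars are the deposited lower and upper bounds and dashed lines the group means. NEAT1 is high in LIN28B KO libraries 1 and 2 (459 and 452 FPKM), MALAT1 stands out in library 3 (892 FPKM), and the 4 protein genes are lowest in library 3.

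NONO and SFPQ, the DBHS proteins needed to form paraspeckles and also active in splicing and DNA repair, were lower in every LIN28B KO library than in any control on the deposited scale. NONO had 389, 371 and 251 FPKM in LIN28B KO libraries 1 to 3, against 442, 412 and 396 FPKM in controls. Library 3 set most of this difference: the log2 difference was -0.33 (SE 0.19) with it and -0.13 (SE 0.06) without it. SFPQ had 194, 176 and 132 FPKM in LIN28B KO libraries 1 to 3, against 209, 217 and 215 FPKM in controls. Its log2 difference was -0.37 (SE 0.17) with all libraries and -0.20 (SE 0.06) without LIN28B KO library 3.

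PSPC1, the remaining DBHS protein, and RBM14, a prion-like protein also needed for paraspeckles to form, were expressed well below the NONO level. PSPC1 had 46.8, 47.2 and 32.1 FPKM in LIN28B KO libraries 1 to 3, against 49.5, 48.6 and 50.8 FPKM in controls. Without LIN28B KO library 3 its log2 difference was -0.08 (SE 0.05), against -0.26 (SE 0.17) with it. RBM14 had 45.4, 45.6 and 28.7 FPKM in LIN28B KO libraries 1 to 3, against 51.3, 54.9 and 57.9 FPKM in controls. Its log2 difference was the most negative of the 6, -0.48 (SE 0.20) with all libraries and -0.26 (SE 0.07) without LIN28B KO library 3. RBM14 values are uncertain, because the readthrough gene RBM14-RBM4 shares its sequence and was assigned 1.73, 6.09 and 3.04 FPKM in LIN28B KO libraries, against 7.50, 5.28 and 6.04 FPKM in controls. The pseudogenes NONOP2 and PSPC1P1 stayed at or under 1.23 FPKM in every library.

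On the deposited scale 1 member, MALAT1, lay wholly above the controls, a pattern shown by 7.61% of the 15803 genes tested, and the 4 protein genes lay wholly below them, as did 20.1% of genes. By limma's test over all genes at an adjusted p of 0.05, 0 of 6 members were called with all libraries, where 0.0949% of genes were called. At an unadjusted p under 0.05 the counts were 1 of 6 members and 2163 genes. Without LIN28B KO library 3, NEAT1 alone of the 6 members was called, as higher, where 0.417% of 15336 genes were called in either direction and 0.15% as higher. Since the members were picked with this contrast known, nothing is read from these counts.

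In order of mean FPKM, a scale per length, controls had NONO (417 ± 23.0), NEAT1 (318 ± 7.02), MALAT1 (268 ± 15.1), SFPQ (213 ± 4.32), RBM14 (54.7 ± 3.29) and PSPC1 (49.6 ± 1.14). In the control libraries no neighbours in this order overlapped. In LIN28B KO libraries 1 and 2 the order was NEAT1 (mean 456 FPKM), NONO (380 FPKM), MALAT1 (322 FPKM), SFPQ (185 FPKM), PSPC1 (47.0 FPKM) and RBM14 (45.5 FPKM). In library 3 it was MALAT1, NEAT1, NONO, SFPQ, PSPC1 and RBM14. NEAT1 thus stood above NONO in all 3 LIN28B KO libraries and below it in all 3 controls. By mean FPKM over all libraries, MALAT1, NONO and NEAT1 ranked 201, 210 and 218 among all genes, SFPQ 465, RBM14 2433 and PSPC1 2535.

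Ratios between members within a library do not depend on the library's scaling factor. NEAT1 over NONO was 1.18, 1.22 and 1.24 in LIN28B KO libraries 1 to 3, against 0.702, 0.784 and 0.811 in controls, a mean of 1.21 ± 0.0290 in LIN28B KO and 0.766 ± 0.0565 in control (SD, n = 3 each). The 3 LIN28B KO libraries, library 3 included, lay close together and above the controls. Set over NONO in the same way, 26.7% of all tested genes had all LIN28B KO libraries above all controls. Such a share was not computed for ratios over SFPQ, PSPC1 or RBM14. Over SFPQ, NEAT1 stood at 2.37, 2.56 and 2.36 in LIN28B KO and at 1.487, 1.490 and 1.495 in control. Over PSPC1 it stood at 9.82, 9.58 and 9.71 in LIN28B KO and at 6.27, 6.65 and 6.32 in control. Over RBM14 it stood at 10.1, 9.91 and 10.8 in LIN28B KO and at 6.04, 5.89 and 5.55 in control. NEAT1 was thus 1.58 times higher in LIN28B KO relative to NONO, 1.63 times relative to SFPQ, 1.51 times relative to PSPC1 and 1.77 times relative to RBM14.

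Relative to NONO the other protein genes overlapped between the groups. SFPQ over NONO was 0.4997, 0.476 and 0.526 in LIN28B KO libraries, against 0.472, 0.526 and 0.542 in controls. PSPC1 over NONO was 0.120, 0.127 and 0.128 in LIN28B KO libraries, against 0.112, 0.118 and 0.128 in controls. RBM14 over NONO was 0.117, 0.123 and 0.114 in LIN28B KO libraries, against 0.116, 0.133 and 0.146 in controls. Relative to PSPC1 the values of RBM14 and SFPQ did not overlap between the groups, although the deposited bounds did. The share of all genes that separate in this way over PSPC1 was not computed, so nothing is read from it. RBM14 over PSPC1 was 0.970, 0.967 and 0.896 in LIN28B KO libraries, against 1.04, 1.13 and 1.14 in controls. SFPQ over PSPC1 was 4.15, 3.74 and 4.12 in LIN28B KO libraries, against 4.21, 4.46 and 4.23 in controls. The LIN28B KO mean over the control mean was 0.86 for RBM14 over PSPC1 and 0.93 for SFPQ over PSPC1. MALAT1 did not follow the proteins: over NONO it was 0.807, 0.892 and 3.55 in LIN28B KO libraries, against 0.588, 0.693 and 0.654 in controls. NEAT1 over MALAT1 was 1.46 and 1.37 in LIN28B KO libraries 1 and 2, with 0.349 in library 3, against 1.19, 1.13 and 1.24 in controls.

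**Figure D2:**
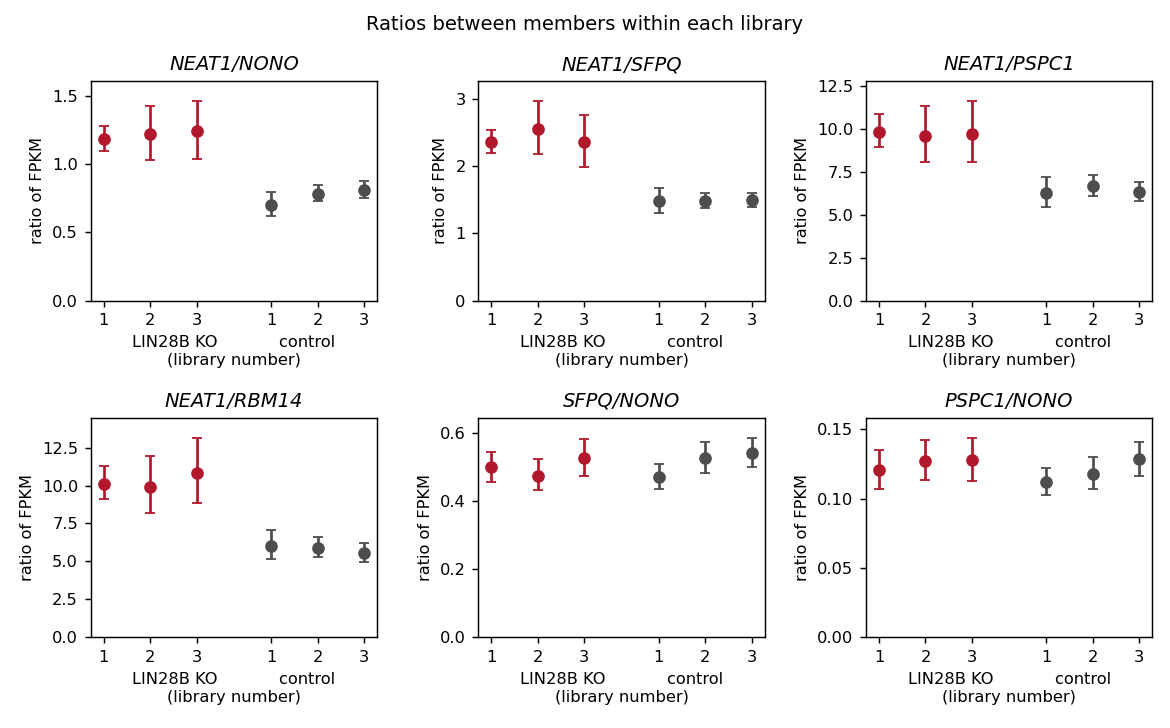
Ratios of FPKM between pairs of members in LIN28B KO libraries 1 to 3 (red, left) and control libraries 1 to 3 (grey, right), on linear axes from 0; error bars join the extreme deposited bounds of both genes. NEAT1 over each of the 4 protein genes is higher in all 3 LIN28B KO libraries than in controls (over NONO 1.18 to 1.24, against 0.702 to 0.811). Over NONO 26.7% of all tested genes had this pattern, and the share over the other protein genes was not computed. SFPQ and PSPC1 over NONO overlap between the groups.

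After removal of the trend with level, NEAT1 lay above the controls in all 3 LIN28B KO libraries. Loess and the ratios both take out the shift of library 3, where coding genes at 200 to 500 FPKM lay at -0.61. The 2 are therefore not independent of each other. After cyclic loess the log2 ratio of NEAT1 to the control mean was 0.63, 0.60 and 0.60 in LIN28B KO libraries 1 to 3. On the deposited scale it was 0.53, 0.50 and -0.03. The log2 difference over all libraries was 0.61 (SE 0.04). MALAT1 remained uneven, with loess log2 ratios of 0.33, 0.39 and 2.36 in LIN28B KO libraries 1 to 3 and a difference of 1.03 (SE 0.54). NONO came to 0.00, -0.07 and -0.10 in the 3 libraries, a log2 difference of -0.06 (SE 0.05). SFPQ, PSPC1 and RBM14 had loess log2 differences of -0.11 (SE 0.05), -0.05 (SE 0.06) and -0.27 (SE 0.09). After loess 2 members lay wholly above the controls (NEAT1 and MALAT1), as did 13.7% of genes, and 2 wholly below (SFPQ and RBM14), as did 13.3% of genes. NEAT1 was the 1 member called after loess, where 0.361% of genes were called higher with all libraries and 0.235% without LIN28B KO library 3. Over the deposited, median-scaled, quantile and loess scales no member changed sign, with NEAT1 between 0.33 and 0.61 and MALAT1 between 0.76 and 1.03.

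**Figure D3:**
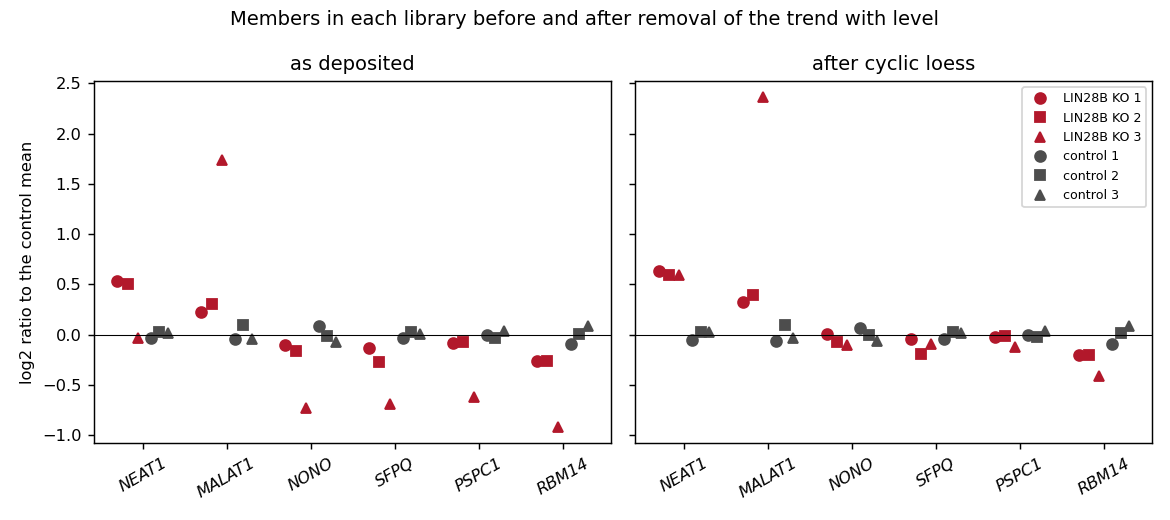
Log2 ratio of each member to the control mean in LIN28B KO libraries (red) and control libraries (grey), with circles, squares and triangles for libraries 1, 2 and 3, on the deposited scale (left panel) and after cyclic loess (right panel). LIN28B KO library 3 lies below the other LIN28B KO libraries for NEAT1 and the 4 protein genes as deposited, NEAT1 comes to 0.63, 0.60 and 0.60 after loess, and MALAT1 in library 3 stays apart at 2.36.

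The excess of MALAT1 in LIN28B KO library 3 was shared by few abundant genes. Of 1138 genes with a control mean of at least 100 FPKM, 11 (0.967%) were at least 2 times higher in library 3 than the mean of LIN28B KO libraries 1 and 2, and MALAT1 was among them; the others were microRNA genes and clone-named gene models. Over genes of all levels the share was 5.9%. RPPH1, RMRP and RN7SL1, which carry no poly(A) tail and were picked after their values were seen, were also highest in library 3. Of 10 such structured RNAs listed, 5 were tested with all libraries and 0 were called. Of these 5, 2 lay wholly above the controls and 0 wholly below, against 7.61% and 20.1% of all genes. RPPH1, the RNA of RNase P, had 12.5, 13.0 and 44.1 FPKM in LIN28B KO libraries 1 to 3, against 8.05, 9.44 and 13.3 FPKM in controls. RMRP, the related RNA of RNase MRP, had 46.8, 28.0 and 114 FPKM in LIN28B KO libraries, against 24.2, 36.5 and 33.4 FPKM in controls. RN7SL1, the RNA of the signal recognition particle, had 343, 303 and 402 FPKM in LIN28B KO libraries, against 176, 211 and 192 FPKM in controls. Summed over all 10 structured RNAs listed, of which RN7SL1 makes up most, the level was 409, 353 and 583 FPKM in LIN28B KO libraries 1 to 3, against 213, 257 and 247 FPKM in controls. Histone genes of the HIST1 cluster, whose main mRNAs also lack a poly(A) tail, summed over all 54 to 228, 232 and 174 FPKM in LIN28B KO libraries, against 151, 166 and 148 FPKM in controls, with library 3 the lowest of the LIN28B KO libraries as deposited. The median log2 ratio of the 20 tested was 0.48, 0.43 and 0.39 in LIN28B KO libraries 1 to 3 as deposited, with library 3 the lowest. After loess this median was 0.47, 0.43 and 0.55, with library 3 the highest. This list too was made after values were seen. As deposited, 9 of the 20 lay wholly above the controls and 0 wholly below, against 7.61% and 20.1% of all genes. With all libraries 0 of 20 were called. Without library 3, HIST1H2AC alone of 19 was called, as higher, where 0.15% of genes were called higher. After loess with all libraries HIST1H2AC and HIST1H2BK were called higher, where 0.361% of genes were. The part of these shifts in the MALAT1 value was not tested.

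Other noncoding RNAs varied in direction. Of 26 listed, 21 were tested and 0 were called with all libraries or without LIN28B KO library 3. At an unadjusted p under 0.05, 3 were higher and 3 lower with all libraries, against 4.95% and 8.73% of all genes. The median log2 difference of the 21 was 0.00, against -0.13 for all genes tested. FTX, from the X-inactivation centre, had 6.46, 7.09 and 10.05 FPKM in LIN28B KO libraries 1 to 3, against 4.47, 4.25 and 3.52 FPKM in controls. NUTM2A-AS1 had 17.3, 17.8 and 17.8 FPKM in LIN28B KO libraries, against 10.9, 12.5 and 12.8 FPKM in controls. SNHG1, a host of small nucleolar RNAs, had 583, 572 and 499 FPKM in LIN28B KO libraries, against 945, 704 and 726 FPKM in controls. FTX and NUTM2A-AS1 lay above all controls and SNHG1 below them. Of the 21 tested, these 2 lay wholly above the controls, as did 7.61% of all genes, and 5 wholly below, as did 20.1%, namely SNHG1, SNHG5, DLEU2, OIP5-AS1 and EPB41L4A-AS1.

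**Figure D4:**
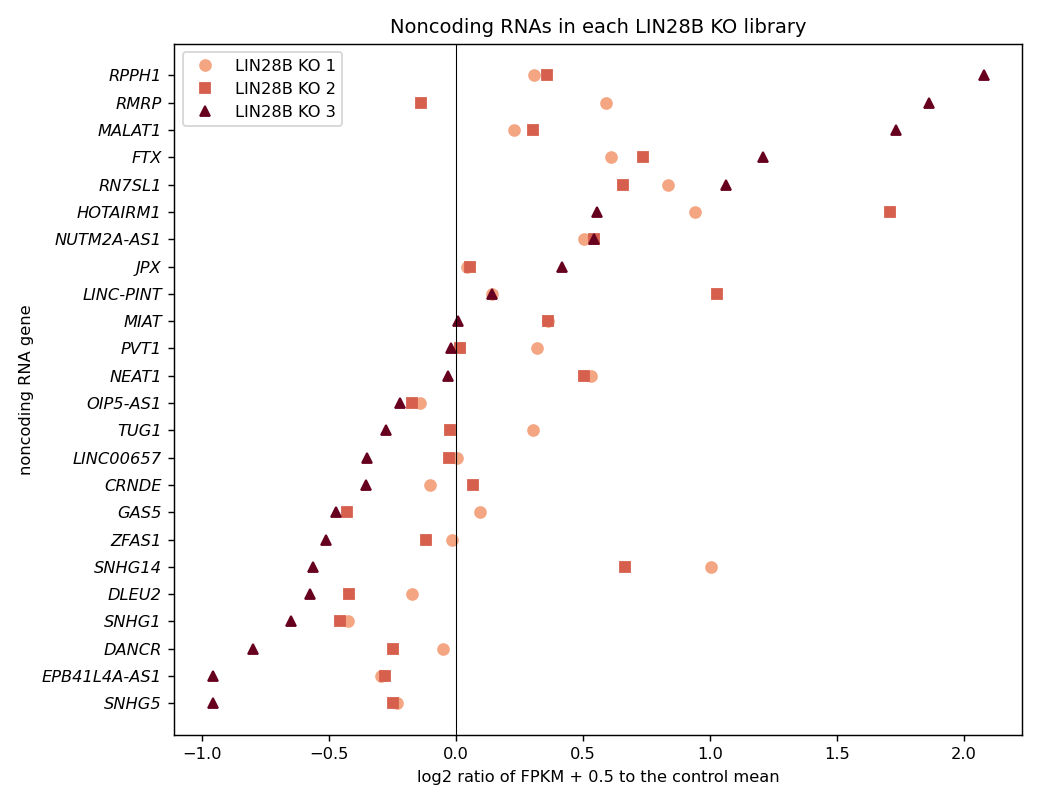
Log2 ratio of FPKM + 0.5 to the control mean for NEAT1, MALAT1, RN7SL1 and the 21 tested noncoding RNAs of the list in LIN28B KO libraries 1 (circles), 2 (squares) and 3 (triangles), ordered by library 3. RPPH1, RMRP and MALAT1 have the highest ratios in library 3, while NEAT1 is high in libraries 1 and 2 only.

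Further paraspeckle proteins lay mostly below the controls, by small amounts. Of 36 tested of 39 listed, 0 were called with all libraries and 0 without LIN28B KO library 3. At an unadjusted p under 0.05, 7 were lower and 0 higher with all libraries, where 8.73% of all genes tested were lower and 4.95% higher. Without library 3, 13 were lower and 0 higher, against 12.0% and 7.75% of all genes. The median log2 difference was -0.25 with all libraries, against -0.13 for all genes tested, and -0.11 without library 3, against -0.02. By library, the median log2 ratio of the list to the control mean was -0.12, -0.14 and -0.51 in LIN28B KO libraries 1 to 3. Coding genes at 20 to 100 FPKM in controls had -0.07, -0.06 and -0.50, and those at 200 to 500 FPKM -0.10, -0.10 and -0.61. Coding genes at such levels thus also lay below the controls. In a fit of protein-coding genes alone without library 3, where 3.02% of 11308 genes were called lower and 1.08% higher, 4 were called lower, RBM3, DAZAP1, HNRNPA1 and HNRNPM. RBM3, a cold-inducible RNA-binding protein, had 114, 121 and 76.1 FPKM in LIN28B KO libraries 1 to 3, against 158, 159 and 166 FPKM in controls. HNRNPA1, a splicing repressor, had 733, 755 and 501 FPKM in LIN28B KO libraries, against 943, 927 and 880 FPKM in controls. Both were among the 16 of 36 with all LIN28B KO libraries below all controls, a pattern of 20.1% of all genes, and 0 of 36 lay wholly above. After loess with all libraries RBM3 alone of the list was called.

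Nuclear speckle proteins, which share their compartment with MALAT1, had a median log2 difference of -0.24 with all libraries and -0.10 without library 3. Of 30 tested, 0 were called in either fit over all genes, and at an unadjusted p under 0.05 the fits gave 5 and 9 lower and 0 higher. Of all genes tested, these fits had 8.73% and 12.0% lower and 4.95% and 7.75% higher at that p. In 15 of the 30 all LIN28B KO libraries lay below all controls, and in 0 above, against 20.1% and 7.61% of all genes. The protein-coding fit, where 3.02% of genes were called lower, called 2 lower, SRSF1 and SRSF2, both SR splicing factors. SRSF2 had 190, 191 and 129 FPKM in LIN28B KO libraries 1 to 3, against 241, 232 and 245 FPKM in controls. SRSF1 had 177, 195 and 128 FPKM in LIN28B KO libraries, against 245, 235 and 226 FPKM in controls. After loess the medians of both protein lists were near 0, at -0.04 for the paraspeckle list and -0.02 for the speckle list.

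Factors that cut, protect or modify the 3′ ends of such RNAs had a median log2 difference of -0.22 with all libraries and -0.07 without library 3. Of 36 tested, 0 were called in either fit over all genes. At an unadjusted p under 0.05, 6 were lower and 0 higher with all libraries, against 8.73% and 4.95% of all genes. Without library 3, 6 were lower and 1 higher, against 12.0% and 7.75%. The protein-coding fit, where 3.02% of genes were called lower, called 2 lower, both protein subunits of RNase P. RPP30 had 15.5, 14.9 and 14.6 FPKM in LIN28B KO libraries 1 to 3, against 20.4, 21.3 and 21.1 FPKM in controls. POP7 had 27.2, 29.3 and 18.7 FPKM in LIN28B KO libraries, against 36.3, 38.2 and 39.2 FPKM in controls. METTL16, which binds the MALAT1 triple helix, had 10.00, 10.4 and 9.47 FPKM in LIN28B KO libraries, against 11.5, 13.4 and 13.1 FPKM in controls, and was not called.

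Among 17 genes known to act upstream of NEAT1 or to respond to stress, 0 were called in either fit over all genes. At an unadjusted p under 0.05, 3 were lower and 1 higher with all libraries, against 8.73% and 4.95% of all genes. Without library 3, 5 were lower and 4 higher, against 12.0% and 7.75%. The protein-coding fit, with 1.08% of genes called higher and 3.02% lower, called 2 higher, MDM2 and CDKN1A, and 2 lower, MYC and BRCA1. After loess without library 3, CDKN1A alone of the 17 was called, as higher, where 0.235% of genes were called higher. MDM2, an E3 ubiquitin ligase, had 419, 310.1 and 322 FPKM in LIN28B KO libraries 1 to 3, against 211, 225 and 226 FPKM in controls. CDKN1A, a cyclin-dependent kinase inhibitor, had 255, 260 and 162 FPKM in LIN28B KO libraries, against 202, 197 and 208 FPKM in controls, and so was above controls in libraries 1 and 2 and below them in library 3, as deposited. The median log2 difference of these 17 genes was -0.12 with all libraries and -0.03 without library 3.

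**Figure D5:**
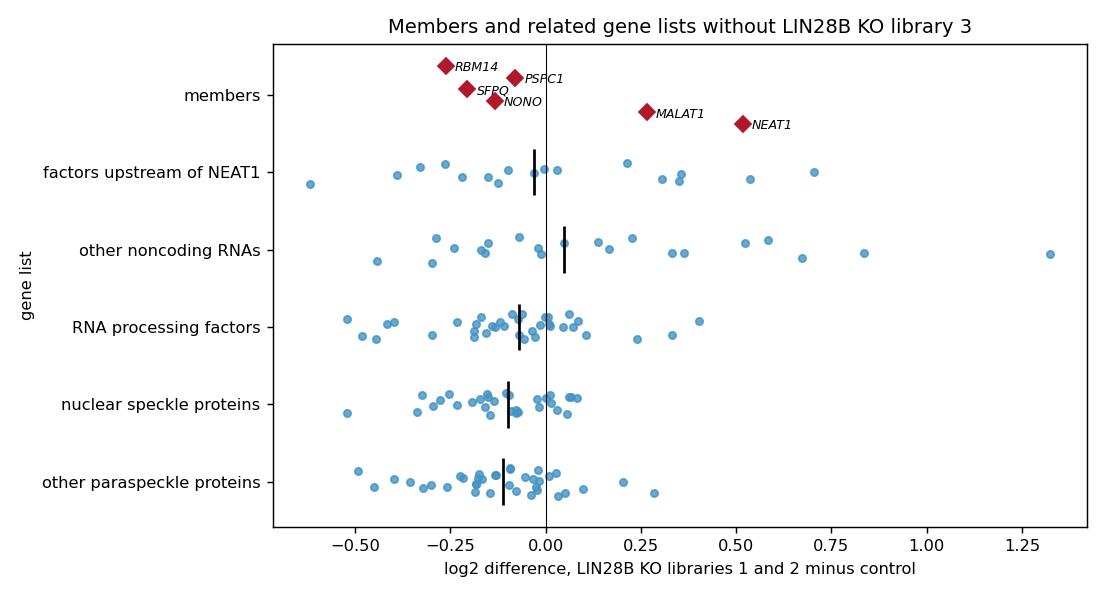
Log2 difference, LIN28B KO libraries 1 and 2 minus the 3 controls, of the 6 members (diamonds) and of the tested genes of 5 related lists (dots, shifted up or down at random for display; vertical lines are medians). NEAT1 (0.52) and MALAT1 (0.27) lie to the right, the 4 protein members to the left, and the list medians lie between -0.11 and 0.05.

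Most genes around NEAT1 and MALAT1 were not called in any of the fits given here. Of 80 genes within 500000 bases of either, 55 were tested and 0 were called with all libraries. At an unadjusted p under 0.05, 1 was higher and 6 lower, against 4.95% and 8.73% of all genes. Without LIN28B KO library 3, 0 of 54 were called, with 5 higher and 10 lower at an unadjusted p under 0.05, against 7.75% and 12.0% of all genes. The median log2 difference was -0.23 with all libraries and -0.08 without library 3. The protein-coding fit called 1 of 45 higher, EHBP1L1 (log2 difference 0.32, adjusted p = 0.0498, limma), and 3 lower, POLA2, CDCA5 and TM7SF2. It called 1.08% of all its genes higher and 3.02% lower. EHBP1L1 had 185, 205.1 and 112 FPKM in LIN28B KO libraries 1 to 3, against 163, 152 and 151 FPKM in controls, with library 3 the lowest of all 6. After loess with all libraries POLA2 and CDCA5 were called lower and 0 of these genes higher, where 54 of 15803 genes were called lower and 57 higher. FRMD8, the nearest gene upstream of NEAT1, had 34.3, 28.96 and 23.6 FPKM in LIN28B KO libraries 1 to 3, against 33.0, 34.0 and 38.7 FPKM in controls. AP000769.1, between NEAT1 and MALAT1, had 4.28, 4.06 and 2.44 FPKM in LIN28B KO libraries, against 2.11, 3.34 and 2.998 FPKM in controls. The strand of the libraries is not given, so reads of MALAT1 cannot be told from those of AP000769.7 inside it, which had at most 2.11 FPKM in any library. The groups overlapped in FRMD8. AP000769.1 lay above all controls in LIN28B KO libraries 1 and 2 and among them in library 3, as did NEAT1, and its log2 difference without library 3 was 0.51 (SE 0.20), with an adjusted p of 0.251 by limma.

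Across the 6 libraries the 4 protein members followed each other, with Pearson correlations of 0.93 to 0.98 between pairs of log2 values, and MALAT1 ran against them, down to -0.997 with PSPC1. These values describe libraries that share the shift of LIN28B KO library 3, and after loess the correlations between protein members were 0.33 to 0.87. NEAT1 correlated with the other 5 members at -0.17 to 0.20 as deposited, and after loess at 0.59 with MALAT1 and -0.81 to -0.54 with the protein genes. Among 5339 genes with a mean of at least 20 FPKM and an SD of at least 0.1 on the log2 scale, the genes most like NEAT1 over the 6 libraries were AP002495.1 (r = 0.996), YPEL5 (r = 0.992) and AC004655.1 (r = 0.988), of which AP002495.1 and AC004655.1 were listed at 0 in 4 libraries. YPEL5 had 53.9, 50.0 and 32.4 FPKM in LIN28B KO libraries 1 to 3, against 30.6, 34.9 and 33.3 FPKM in controls, the high, high and control-level order of NEAT1. Those most like MALAT1 were AC061975.1 (r = 0.998), RP11-166B2.5 (r = 0.996) and CRLF3 (r = 0.990). AC061975.1 had 420.1, 414 and 1365 FPKM in LIN28B KO libraries, against 329, 342 and 317 FPKM in controls. The nearest to the protein members were WSB1 for NONO, TBCB for SFPQ, MRPL53 for PSPC1 and EPB41L4A-AS1 for RBM14, each with r of at least 0.999 when rounded to 3 decimals.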

How the data were processed

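Total RNA of 6 MOLP-8 libraries was sequenced after NEBNext library preparation, per the labels' protocols. The submitters' processing notes name HTSeq, TopHat2, cutadapt and GRCh37, with neither versions nor roles. The authors deposited gene-level FPKM with bounds, per the file headers. No source used here states the strand, the RNA selection or the numbers of reads, so depth is unknown, and the bounds cover error within a library only. Rows of the 108 genes listed more than once were summed, and 25 genes with a failed estimate were left out of 57886. The design allowed for counts or FPKM, and the FPKM form applied.

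Log2(FPKM + 0.5) of genes at 1 FPKM or more in at least 3 libraries was fitted with limma 3.58.1 in R 4.3.3, with a variance trend, with two-sided p-values under Benjamini-Hochberg adjustment over all genes tested, at a threshold of 0.05. Differences are LIN28B KO minus control, and fold changes of low genes are understated by the added 0.5. Separate fits left out LIN28B KO library 3, used protein-coding genes alone, or followed cyclic loess. The limma fit was tested on simulated data without a shifted library and with larger differences than most members showed. That test does not cover the shift of LIN28B KO library 3. Members and lists were chosen with earlier results of these data known. From each list up to 6 genes with the smallest p without library 3 could be named, from the neighbourhood the 6 nearest at 1 FPKM or more, and for each member the 3 genes of highest correlation, and some genes so picked are not reported here; RPPH1, RMRP, RN7SL1 and the lists of RNAs without a poly(A) tail and of HIST1 genes were added after values were seen. Motifs were searched in GENCODE 29 transcripts, without genome coordinates.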

Additional observations from a re-analysis of the deposited data

How the results depend on the processing

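Over 18 results and up to 21 settings, 9 values became stronger, 31 weaker and 5 moved by more than the spread. No member's log2 difference changed sign, while NEAT1 was called after loess and without LIN28B KO library 3 but not with all libraries as deposited. Leaving out 1 library at a time gave log2 differences of 0.24 to 0.52 for NEAT1, 0.27 to 1.02 for MALAT1, -0.45 to -0.13 for NONO, -0.48 to -0.20 for SFPQ, -0.35 to -0.08 for PSPC1 and -0.59 to -0.26 for RBM14. NEAT1 over NONO had a log2 difference of 0.65 without LIN28B KO library 3, a setting added after seeing the data. With all libraries 10 genes were called higher, against 57 after cyclic loess, 5 without a filter and 1 to 23 when 1 library was left out. There 5 were called lower, against 54 after loess, 13 after quantile normalization, 3 after median scaling, 1 without a filter, 1 at a filter of 5 FPKM and 0 to 41 when 1 library was left out. Without LIN28B KO library 3, 23 genes were called higher, against 36 after loess, 122 among protein-coding genes alone, 15 without a filter, 2 without a variance trend and 0 to 1 when a further library was left out. There 41 were called lower, against 341 among protein-coding genes alone, 11 without a filter, 11 without a variance trend and 0 to 7 when a further library was left out. A lone LIN28B KO library in such a fit is assumed to vary like the controls.

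With the replicate number as a block, all libraries gave 11 higher and 2 lower calls, and 0 and 0 after loess. The block without LIN28B KO library 3 gave 1 higher and 4 lower, and 1 and 4 after loess. Deviations of same-numbered libraries from their group means correlated at -0.02, 0.04 and -0.03, within the -0.08 to 0.09 of libraries with unlike numbers. With 3 libraries per group and the shift of LIN28B KO library 3, these values cannot settle whether the numbers pair libraries. The median of the other noncoding RNAs, near 0 as deposited, ran from -0.14 without LIN28B KO library 1 to 0.21 after loess, with or without the block. That of the genes upstream of NEAT1 changed sign, from -0.12 as deposited to 0.11 after loess, with or without the block, and to 0.061 after quantile normalization. The cause of these changes was not tested. Read numbers and isoform values were not used here, so a count test was not run, and whether the short or the long NEAT1 isoform differed cannot be told.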
